A study of Mus musculus with 4 samples.

Results

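Cd40, Cd80, Cd86, Cd83, Cd274, Pdcd1lg2, Icosl and Fscn1 are 8 genes through which an antigen-presenting cell tells a T cell how to respond. They were taken by gene identifier from the gene counts of mouse macrophages, where they are 8 of 52550 entries. The 8 are named for costimulation and checkpoint ligands, although Cd40 encodes a receptor and Fscn1 an actin-bundling protein. Their levels were compared over 4 libraries of polyadenylated RNA. The cells were macrophages cultured from the bone marrow of C57BL/6 mice aged 8 to 10 weeks. The groups were miR-7 deficient macrophages given LPS, wild-type macrophages given LPS, miR-7 deficient unstimulated macrophages and wild-type unstimulated macrophages, with 1 library in each. LPS, the bacterial outer-membrane lipid sensed by Toll-like receptor 4, was given at 100 ng/mL for 12 hours. miR-7 is a microRNA, a short RNA that lowers the output of messenger RNAs carrying matching sites. The labels and design text do not give the allele or method behind the deficiency, the sex of the animals or how many of them a library represents. The series text states that the counts served to find protein-coding genes lowered by miR-7.

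A T cell that recognises its antigen also needs costimulation, which a resting antigen-presenting cell gives sparingly and an activated one gives in full. CD80 and CD86 engage CD28 to activate T cells and CTLA-4 to restrain them, CD40 takes the signal that a helper T cell returns through CD40 ligand, and ICOS ligand engages the receptor ICOS. PD-L1 and PD-L2, the products of Cd274 and Pdcd1lg2, bind the inhibitory receptor PD-1 and are known to be induced by interferons and by microbial products, so that activation brings the brake together with the stimulus. CD83 stabilises MHC class II and CD86 at the cell surface, and fascin, the product of Fscn1, bundles actin in the dendrites of mature dendritic cells.

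Gene counts summed to between 33937823 and 42074624 a library, and between 18156 and 18613 entries had at least 1 count. Levels are given as CPM, counts scaled to library size with TMM factors, and, where genes are compared with each other, as CPM per kb of merged exon. Testing took the 12730 genes that reached 1 CPM in 2 or more libraries, among them all 8. A gene under 1 CPM in both libraries of a condition passed through the other condition alone. Its LPS call, if any, could then only go that way. Each of the 8 was above 1 CPM in all 4 libraries. The fit of edgeR's quasi-likelihood test to the 4 libraries had a genotype and an LPS term, with p adjusted by the Benjamini-Hochberg method over all genes tested and called under 0.05. Only 1 degree of freedom was left, so the p-values measure how alike the pairs of libraries were and not the spread among mice or cultures. Values for a single pair of libraries carry a 95% interval that covers counting error only. In bulk RNA, a change in the share of cells that express a gene cannot be told apart from a change in the RNA per cell.

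The macrophage markers were abundant in every library, with a summed level of 15220, 13462, 23047 and 22529 CPM in the deficient LPS, wild-type LPS, deficient unstimulated and wild-type unstimulated libraries. The 12 markers of conventional dendritic cells, which express these 8 genes at high levels when mature, summed to 1376 CPM and 1455 CPM in the LPS libraries and to 1923 CPM and 1837 CPM in the unstimulated ones. Most of that sum was Itgax, an integrin gene that macrophages also express, while Flt3, the growth factor receptor that defines the lineage, had 0 counts in all 4. Other markers of the list were present. Clec9a had 1170 and 1079 counts in the deficient and wild-type unstimulated libraries, against 49 and 144 with LPS. Zbtb46 had 57 to 203 counts, Kit 102 to 295 and Batf3 20 to 473, while Cd209a and Itgae had 22 or fewer. The summed markers of B cells stood at 10.1 CPM or less, those of T cells and NK cells at 6.41 CPM or less, of plasmacytoid dendritic cells at 4.50 CPM or less, of neutrophils at 11.2 CPM or less, of mast cells and basophils at 7.61 CPM or less and of fibroblasts at 5.56 CPM or less. Cd3d, Ly6g, Elane and Fcer1a had 0 counts in every library. Other markers of these lists had counts. The neutrophil marker S100a8 had 327 and 288 counts in the deficient and wild-type LPS libraries, against 173 and 214 in the deficient and wild-type unstimulated ones. In the same order the mast cell marker Cpa3 had 24 and 244 against 6 and 54, and the B cell marker Ighm had 4 and 0 against 388 and 301. The 6 endothelial markers summed to 256 CPM and 173 CPM with LPS and to 35.9 CPM and 42.9 CPM without, most of it Kdr. Cdh5 had 366 and 223 counts in the deficient and wild-type LPS libraries, against 184 and 237 in the deficient and wild-type unstimulated ones. Pecam1 had 77 and 111 against 15 and 55 in the same order. Esam had 21 counts or fewer, and Tek and Cldn5 had 5 or fewer. The part of these cell types in the results was not tested.

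The wild-type unstimulated library stood apart from the deficient unstimulated one in the genes that LPS raises most. Over the 50 genes with the highest LPS ratio in the deficient pair, the unstimulated level was a median of 0.393% of the LPS level in the deficient pair and 1.28% in the wild-type pair. It was the higher share in the wild-type pair for 50 of the 50 genes, a count that choosing them in the deficient pair favours. Choosing them in the wild-type pair gave 0.495% in the deficient pair against 1.19% in the wild-type pair, with 40 of 50 higher in wild type. Cd40 belongs with these genes, at 0.306% in the deficient pair and 1.47% in the wild-type pair. Results on Cd40, and those of other genes that it moves by over 1.5-fold or to the other side of 0, are therefore also given after 1.28% of each wild-type LPS count was subtracted from the wild-type unstimulated library. Nothing was subtracted from the deficient unstimulated library, where the genes chosen in the deficient pair stood at a median of 0.393%. A genotype value after the subtraction depends on that choice, so its sign gives no direction. The part of this signal in the results was otherwise not tested.

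LPS raised all 8 genes. In the edgeR fit 8 of 8 passed the test as higher and 0 as lower, where 18.0% of all genes tested passed as higher and 16.3% as lower. The 8 genes were chosen with earlier results of these data known, so the shares over all genes are a setting for them and not a test. The median fitted log2 change was 3.24 for the 8 genes and -0.04 for all genes tested. In the deficient pair 8 of 8 were higher by an interval wholly beyond 2-fold, as were 12.5% of all genes tested, and 0 of 8 were lower, against 11.8%. In the wild-type pair 8 of 8 were again beyond 2-fold higher, against 14.8%, and 0 of 8 lower, against 13.3%. Scaling by total counts, which lowers all LPS ratios, left 7 of 8 beyond 2-fold higher in the deficient pair, without Pdcd1lg2, and 6 of 8 in the wild-type pair, without Pdcd1lg2 and Cd83. Counts of the 8 genes together came to 140585 and 129555 in the deficient and wild-type LPS libraries and to 16755 and 18975 in the deficient and wild-type unstimulated libraries.

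**Figure D1:**
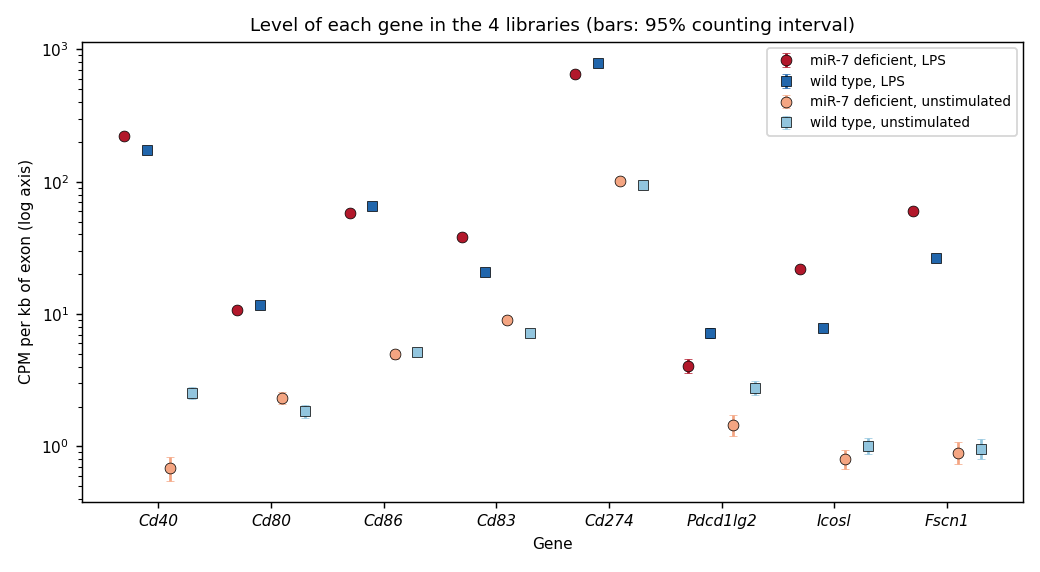
Level of the 8 genes in each library, in CPM per kb of exon on a log axis, with 95% counting intervals. For every gene both LPS points lie above both unstimulated points, and Cd274 is the highest gene in all 4 libraries, between 94.0 and 789 CPM per kb.

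The stimulatory ligands of the B7 family came first. Cd86, on the minus strand at chr16:36603869-36666081 of GRCm38, had 211.6 CPM in the deficient LPS library and 238.8 CPM in the wild-type LPS library, against 18.2 CPM in the deficient unstimulated and 18.8 CPM in the wild-type unstimulated library. The levels with LPS were alike in both genotypes, and those without LPS were alike as well. It rose with a fitted log2 change of 3.60 ± 0.20 (SE; edgeR's quasi-likelihood test, Benjamini-Hochberg adjusted p = 0.000175). The pairs gave 11.6-fold in deficient and 12.7-fold in wild-type cells.

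Cd80, at chr16:38455561-38496335 on the plus strand, encodes the other CD28 ligand. It had 39.6 CPM and 43.3 CPM in the deficient and wild-type LPS libraries, against 8.60 CPM and 6.83 CPM in the deficient and wild-type unstimulated libraries. The rise was log2 2.43 ± 0.24 (edgeR adjusted p = 0.000816), or 4.61-fold in the deficient pair and 6.34-fold in the wild-type pair. Per kb of exon, Cd86 stood above Cd80 in every library, by 5.40-fold (5.11 to 5.71) in the deficient LPS, 5.58-fold (5.27 to 5.90) in the wild-type LPS, 2.14-fold (1.87 to 2.44) in the deficient unstimulated and 2.79-fold (2.45 to 3.18) in the wild-type unstimulated library. The balance thus lay further towards Cd86 with LPS in both genotypes, and the intervals with LPS do not overlap those without.

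Icosl, at chr10:78069302-78083913 on the plus strand, had 100.7 CPM in the deficient LPS library and 36.4 CPM in the wild-type LPS library. Without LPS it had 3.70 CPM in the deficient and 4.67 CPM in the wild-type library. Both LPS libraries were above both unstimulated ones, and the deficient LPS library was the highest of the 4. It rose by log2 3.86 ± 0.47 (edgeR adjusted p = 0.00180), 27.2-fold in the deficient pair and 7.81-fold in the wild-type pair. In a model of LPS alone the fitted value was 3.12 without the deficient LPS library and 4.59 without the wild-type LPS library, both still called. The promoter is shown because it holds a match to the NF-kB consensus, a factor that LPS activates. The 300 bases at chr10:78069118-78069417 of GRCm38.p6 (RefSeq, plus strand, 250 before to 50 after the start site) have the match in capitals, which reads as the consensus on the opposite strand at -111 to -102.
Icosl promoter: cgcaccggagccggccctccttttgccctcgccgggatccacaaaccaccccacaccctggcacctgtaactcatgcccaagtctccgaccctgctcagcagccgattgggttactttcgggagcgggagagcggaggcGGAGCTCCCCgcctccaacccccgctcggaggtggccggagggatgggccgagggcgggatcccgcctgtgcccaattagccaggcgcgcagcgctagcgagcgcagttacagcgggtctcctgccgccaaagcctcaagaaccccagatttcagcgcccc
Of 32851 such windows of all genes, 8.46% hold the consensus on either strand. The next gene on the left of Icosl, 5679 bp away, is Dnmt3l, a cofactor of DNA methyltransferases. That gene, looked up after values were seen, also rose, by log2 4.65 ± 0.38 (edgeR adjusted p = 0.000485), with 529 and 501 counts in the deficient and wild-type LPS libraries and 29 and 21 in the deficient and wild-type unstimulated ones.

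Cd40 showed the steepest change of the 8 genes in both pairs. It lies at chr2:165055627-165072948 on the plus strand and had 28362 counts in the deficient LPS library and 19479 in the wild-type LPS library, against 91 in the deficient unstimulated and 404 in the wild-type unstimulated library. As CPM these were 758.5 and 588.4 with LPS and 2.32 and 8.65 without, in deficient and wild-type cells. Both LPS libraries were far above both unstimulated ones, and the deficient unstimulated library was the lowest of the 4. Cd40 rose by log2 7.17 ± 0.63 (edgeR adjusted p = 0.000585), the 61st highest fitted change of 12730. The ratio was 326-fold in the deficient pair and 68.0-fold in the wild-type pair. After the 1.28% was taken off, the wild-type unstimulated library held 52 Cd40 counts, or 1.11 CPM, the log2 ratio of the wild-type pair was 9.05 in place of 6.09, and the fitted change was 8.68. In a model of LPS alone the fitted change was 6.29 without the deficient unstimulated library and 8.23 without the wild-type unstimulated one, and the call held in each of these fits.

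Cd83, at chr13:43784775-43803132 on the plus strand, had 98.6 CPM in the deficient LPS and 53.6 CPM in the wild-type LPS library, against 23.2 CPM in the deficient unstimulated and 18.5 CPM in the wild-type unstimulated library. The change was among the smaller ones of the 8 genes, 4.26-fold in the deficient pair and 2.90-fold in the wild-type pair. It passed the test at log2 1.81 ± 0.23 (edgeR adjusted p = 0.00217). In a model of LPS alone the call ended when either unstimulated library was left out. The fitted log2 was then 2.05 without the deficient unstimulated library and 1.77 without the wild-type one. The spread in those fits came from the LPS libraries, which differed by 1.84-fold.

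Fscn1, at chr5:142960343-142973185 on the plus strand, encodes fascin and was among the scarcer tested genes without LPS, at places 10692 and 10447 of 12730 by CPM per kb in the deficient and wild-type unstimulated libraries. It had 182 CPM in the deficient LPS library and 80.2 CPM in the wild-type LPS library, against 2.71 CPM in the deficient and 2.89 CPM in the wild-type unstimulated library. The unstimulated libraries were alike, and the deficient LPS library stood above the wild-type LPS one. Fscn1 rose by log2 5.43 ± 0.38 (edgeR adjusted p = 0.000292), which was 67.3-fold in the deficient pair and 27.8-fold in the wild-type pair. With the 1.28% taken off, the wild-type unstimulated library held 87 Fscn1 counts in place of 135, and the wild-type ratio was 43.1-fold. In a model of LPS alone the fitted value was 4.84 without the deficient LPS library and 6.02 without the wild-type LPS library, both still called. Among the 8 it ranked after Cd40 alone in fitted change, at place 183 of 12730.

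The 2 genes for ligands of PD-1 lie next to each other on chromosome 19, with 22823 bp between them. Cd274, at chr19:29367455-29388095, was the most abundant of the 8 genes throughout. It had 2361 CPM in the deficient LPS and 2859 CPM in the wild-type LPS library, against 366 CPM in the deficient unstimulated and 340.4 CPM in the wild-type unstimulated library. The LPS libraries were both well above the unstimulated ones, which were alike. It rose by log2 2.88 ± 0.23 (edgeR adjusted p = 0.000437), or 6.45-fold in the deficient pair and 8.40-fold in the wild-type pair. Cd274 shares exonic bases with a gene on the opposite strand that has no row in the counts, and whether counting used strand is not stated, so reads of the partner cannot be told apart from its own.

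Pdcd1lg2, at chr19:29410919-29471161, was the scarcest of the 8 in the LPS libraries. It had 297 counts (7.94 CPM) in the deficient LPS and 469 counts (14.2 CPM) in the wild-type LPS library, against 111 counts (2.83 CPM) in the deficient unstimulated and 255 counts (5.46 CPM) in the wild-type unstimulated library. The lower of the LPS levels, in deficient cells, was above the higher of the unstimulated levels, in wild-type cells. The rise was log2 1.43 ± 0.29 (edgeR adjusted p = 0.0119), 2.80-fold in the deficient and 2.60-fold in the wild-type pair. That call ended in a model of LPS alone (log2 1.41, edgeR adjusted p = 0.0828), and in that model without the deficient LPS (1.77, adjusted p = 0.0708), the wild-type LPS (0.94, adjusted p = 0.260), the deficient unstimulated (1.03, adjusted p = 0.243) or the wild-type unstimulated library (2.02, adjusted p = 0.0909).

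Per kb of exon, Cd274 exceeded Pdcd1lg2 by 161-fold (144 to 181) in the deficient LPS and 109-fold (99.8 to 120) in the wild-type LPS library, against 70.0-fold (58.1 to 85.1) in the deficient unstimulated and 33.8-fold (29.8 to 38.4) in the wild-type unstimulated library. PD-L1 message thus outweighed PD-L2 message in every library, and more so with LPS in both genotypes. The gene on the other side of Cd274, Plgrkt, which encodes a plasminogen receptor, starts 64 bp away and did not pass the LPS test (log2 0.02 ± 0.20, edgeR adjusted p = 0.948). Ric1, 51120 bp beyond Pdcd1lg2, did not pass either (log2 0.47 ± 0.18, edgeR adjusted p = 0.0942). Neighbours were looked up after values were seen. The promoters of the adjacent pair are shown because both genes rose yet the windows hold different motifs. That of Cd274, chr19:29367188-29367487, has 1 match to the core of the interferon-stimulated response element, GAAANNGAA, on the opposite strand at -76 to -68. That of Pdcd1lg2, chr19:29410669-29410968, has 1 match to the NF-kB consensus at -244 to -235. Both are RefSeq windows of GRCm38.p6 on the plus strand, with the match in capitals.
Cd274 promoter: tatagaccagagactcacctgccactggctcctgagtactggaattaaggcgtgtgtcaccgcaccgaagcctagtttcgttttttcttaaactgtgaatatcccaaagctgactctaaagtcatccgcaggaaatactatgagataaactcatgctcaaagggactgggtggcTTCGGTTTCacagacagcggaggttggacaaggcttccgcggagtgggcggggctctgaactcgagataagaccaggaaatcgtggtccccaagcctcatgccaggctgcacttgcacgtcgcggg
Pdcd1lg2 promoter: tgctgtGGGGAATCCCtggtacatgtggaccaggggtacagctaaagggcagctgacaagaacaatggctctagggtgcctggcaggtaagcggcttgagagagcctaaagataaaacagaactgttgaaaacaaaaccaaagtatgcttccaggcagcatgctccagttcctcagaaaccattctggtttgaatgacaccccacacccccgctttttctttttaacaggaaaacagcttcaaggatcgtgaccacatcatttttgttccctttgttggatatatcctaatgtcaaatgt
The interferon-stimulated core occurs in 8.56% of the 32851 windows. Windows were matched for 5 of the 8 genes, the others being Cd80 and Fscn1, which hold no match to either motif. A match in letters is a description of the sequence and was not tested for binding.

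**Figure D2:**
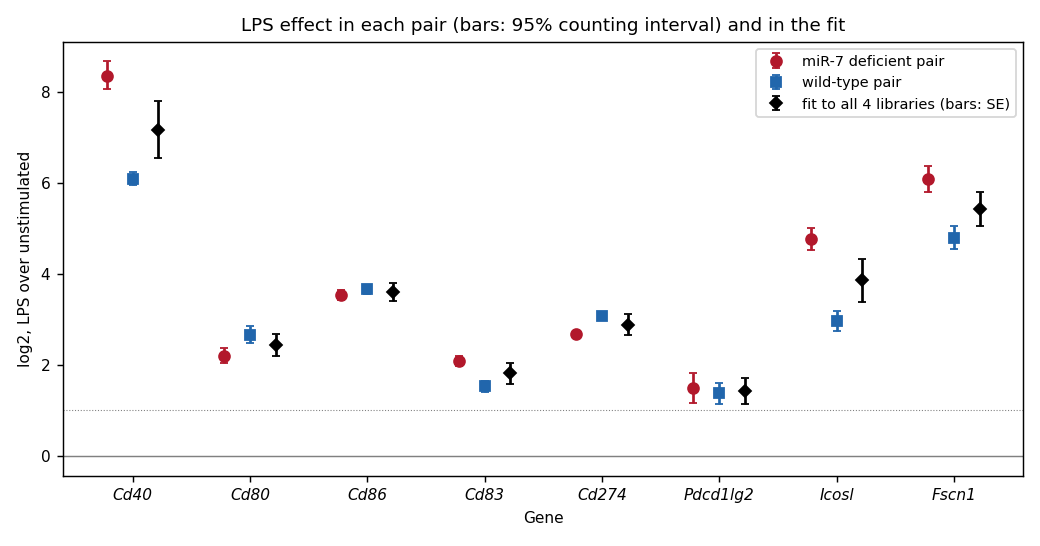
Log2 ratio of LPS over unstimulated for each gene in the miR-7 deficient pair and the wild-type pair, with 95% counting intervals, and the fit to all 4 libraries with its SE. All values lie above the dotted line at 2-fold, from 1.38 for Pdcd1lg2 in the wild-type pair to 8.35 for Cd40 in the deficient pair.

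The order of the 8 genes, per kb of exon, differed between LPS and unstimulated libraries. In the deficient LPS library it ran Cd274 at 652 CPM per kb, Cd40 at 223, Fscn1 at 60.4, Cd86 at 57.8, Cd83 at 38.3, Icosl at 21.8, Cd80 at 10.7 and Pdcd1lg2 at 4.05. Only the neighbours Fscn1 and Cd86 had overlapping intervals, and they change places when the longest transcript is used as the length. In the wild-type LPS library it ran Cd274 at 789 CPM per kb, Cd40 at 173, Cd86 at 65.2, Fscn1 at 26.6, Cd83 at 20.8, Cd80 at 11.7, Icosl at 7.89 and Pdcd1lg2 at 7.23, the last 2 with overlapping intervals. Without LPS the order in deficient cells was Cd274 at 101 CPM per kb, Cd83 at 9.0, Cd86 at 4.97, Cd80 at 2.32, Pdcd1lg2 at 1.45, Fscn1 at 0.899, Icosl at 0.801 and Cd40 at 0.682, where the last 3 did not differ beyond their intervals. In wild-type unstimulated cells it was Cd274 at 94.0 CPM per kb, Cd83 at 7.19, Cd86 at 5.15, Pdcd1lg2 at 2.78, Cd40 at 2.54, Cd80 at 1.84, Icosl at 1.01 and Fscn1 at 0.960, with overlap between Pdcd1lg2 and Cd40 and between Icosl and Fscn1.

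Cd274 therefore led everywhere, and made up 61.1% and 71.7% of the summed CPM per kb of the 8 genes in the deficient and wild-type LPS libraries and 83.4% and 81.4% in the deficient and wild-type unstimulated libraries. Cd40 took 20.9% and 15.7% with LPS and 0.563% and 2.20% without, in deficient and wild-type cells. Among the 12730 tested genes ranked by CPM per kb, Cd40 stood at place 244 in the deficient LPS and 322 in the wild-type LPS library, against 11142 in the deficient unstimulated and 8035 in the wild-type unstimulated library. Per kb, Cd274 was above Cd40 by 2.93-fold in the deficient LPS and 4.57-fold in the wild-type LPS library, against 148-fold in the deficient unstimulated and 37.0-fold in the wild-type unstimulated library. With the 1.28% taken off, Cd40 in the wild-type unstimulated library was last of the 8 genes, with 0.322% of their sum, place 11800 among tested genes and a level 257-fold below Cd274.

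Genotype was the other axis. miR-7 has 3 mouse loci that give 2 mature sequences with the same seed, bases 2 to 8, shown in capitals as the part that pairs with a messenger RNA. They are printed with the stretches of the 8 genes that could pair with them. The mature sequences are from RefSeq on GRCm38.p6, where miR-7a-5p comes from chr13:58392841-58392863 on the minus strand and from chr7:78888295-78888317 on the plus strand, and miR-7b-5p from chr17:56243017-56243040 on the plus strand.
mmu-miR-7a-5p: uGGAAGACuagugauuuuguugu
mmu-miR-7b-5p: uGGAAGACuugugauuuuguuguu
Only Fscn1 of the 8 genes has the full 7-base match, GTCTTCC, in the longest annotated 3′ UTR, as have 14.3% of 11296 tested genes with a 3′ UTR. The 6-base core TCTTCC occurs in 3 of the 8, Fscn1, Cd274 and Pdcd1lg2, against 46.4% of those genes. The 3′ UTRs of Cd40, Cd80, Cd86, Cd83 and Icosl, between 1447 and 2035 bases long, hold neither. The stretches below are from the gene strand of GENCODE M21 on GRCm38, with the match in capitals, at chr5:142972934-142972961, chr19:29470662-29470689 and chr19:29387484-29387511.
Fscn1 site: tggtgctccacGTCTTCCcagacacctc
Pdcd1lg2 core: taagactgacaaTCTTCCctctgtctca
Cd274 core: gccattttggttTCTTCCttgacttctc
The core stands at base 848 of 1087 in the 3′ UTR of Fscn1, at base 182 of 669 in Pdcd1lg2 and at base 2084 of 2683 in Cd274. Cd274 has a pair of further cores, at bases 1614 and 1666. Pairing was not tested here, and mature miR-7 has no poly(A) tail, so the counts did not measure it.

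No member passed the genotype test. In the edgeR fit 0 of 8 were called in either direction, where 0.550% of all genes tested were (70 genes, 49 higher and 21 lower). At an unadjusted p under 0.05 there were 2 of the 8, Cd83 and Pdcd1lg2, and 968 of all genes tested, and DESeq2's Wald test also called 0 of 8. The fitted log2 genotype values were 0.60 ± 0.23 for Cd83 (edgeR adjusted p = 0.578) and -0.89 ± 0.29 for Pdcd1lg2 (edgeR adjusted p = 0.473). The medians were 0.01 for the 8 genes and 0.02 for all genes tested. A difference between genotypes in 1 condition alone counts as spread in this fit, so the pairs are given below as descriptions of single libraries. With 1 library a group, genotype cannot be told apart from any other difference between the mice or cultures.

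With LPS, 2 of the 8 genes, Icosl and Fscn1, were higher in the deficient library by an interval wholly beyond 2-fold, as were 2.58% of all genes tested, and 0 of 8 were lower, against 3.04%. Icosl, at 100.7 CPM in the deficient LPS library against 36.4 CPM in the wild-type LPS library, was 2.76-fold higher, a log2 ratio of 1.47 (1.37 to 1.56). Fscn1, at 182 CPM against 80.2 CPM in the same libraries, was 2.27-fold higher, log2 1.18 (1.12 to 1.25). Fscn1 has the 7-base site and Icosl has neither site nor core, and a part of miR-7 pairing in these ratios was not tested. Cd83 was 1.84-fold higher, log2 0.88 (0.80 to 0.96), and Cd40 was higher by log2 0.37 (0.34 to 0.39). The other 4 lay below wild type, with log2 ratios of -0.83 (-1.05 to -0.62) for Pdcd1lg2, -0.28 (-0.29 to -0.26) for Cd274, -0.17 (-0.22 to -0.13) for Cd86 and -0.13 (-0.23 to -0.02) for Cd80. Intervals lay above 0 for 4 of the 8 genes and below 0 for 4, against 34.8% and 31.6% of all genes tested, and that of Cd80 held 0 under scaling by total counts (-0.055, -0.161 to 0.050).

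Without LPS, 0 of the 8 genes were beyond 2-fold higher in the deficient library, against 2.82% of all genes tested, and 1, Cd40, was beyond 2-fold lower, against 1.41%. Its log2 ratio was -1.90 (-2.24 to -1.57), with 2.32 CPM in the deficient and 8.65 CPM in the wild-type unstimulated library. That direction turned once the 1.28% was taken off, with a log2 ratio of 1.06 (0.55 to 1.58), and the fitted genotype value of Cd40 went with it, 0.66 in place of -0.68. Nothing was taken off the deficient unstimulated library, where Cd40 stood at 0.306% of its LPS level, so the turn gives no direction. Pdcd1lg2 was lower as it was with LPS, log2 -0.95 (-1.28 to -0.62). The intervals of Cd80 at 0.33 (0.11 to 0.56), Cd83 at 0.32 (0.19 to 0.46) and Cd274 at 0.11 (0.07 to 0.14) lay above 0 and that of Icosl at -0.33 (-0.65 to -0.02) below it. For Fscn1 at -0.09 (-0.48 to 0.28) and Cd86 at -0.05 (-0.20 to 0.09) the intervals held 0. Above 0 and below 0 there were thus 3 genes each, Cd40 and Pdcd1lg2 among the lower ones, against 31.9% and 30.7% of all genes tested. With the 1.28% taken off, the ratios of Fscn1 at 0.54 (0.12 to 0.96) and Cd86 at 0.20 (0.05 to 0.35) lay above 0, and the interval of Icosl held 0 (-0.18, -0.50 to 0.14).

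**Figure D3:**
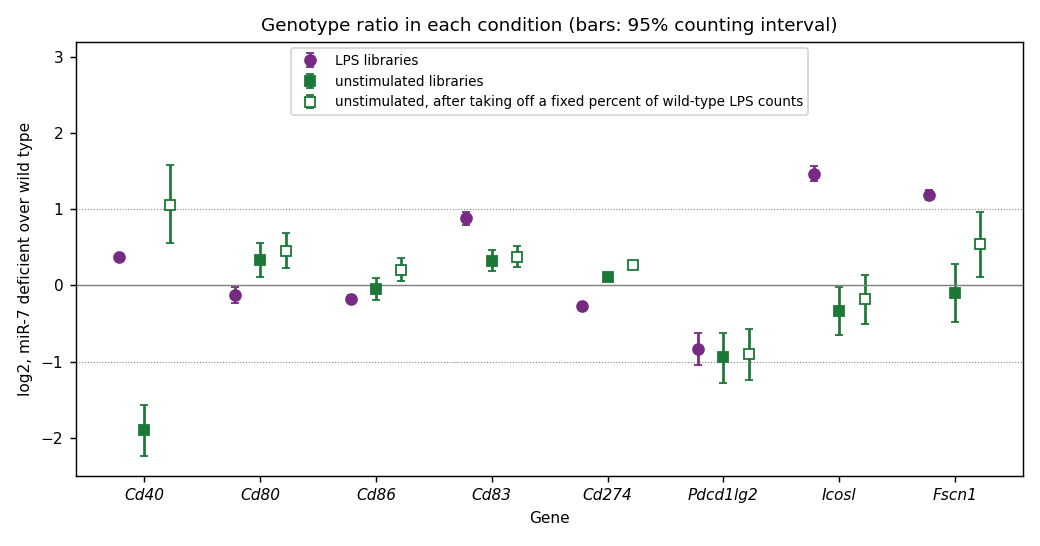
Log2 ratio of miR-7 deficient over wild type for each gene in the LPS libraries and the unstimulated libraries, with 95% counting intervals, and the unstimulated ratio after 1.28% of each wild-type LPS count was subtracted from the wild-type unstimulated library. Icosl at 1.47 and Fscn1 at 1.18 lie above the dotted 2-fold line with LPS only, and the unstimulated ratio of Cd40 is -1.90 as counted and 1.06 after the subtraction.

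How far the LPS response differed between genotypes was read from the LPS ratio of the deficient pair minus that of the wild-type pair, a difference of log2 values with no replicate. It was beyond 2-fold in the higher direction for 2 of 8 genes, Cd40 and Icosl, against 2.26% of all genes tested, and in the lower direction for 0 of 8, against 3.82%. For Icosl it was 1.80 (1.48 to 2.12), with log2 ratios of 4.77 in the deficient and 2.96 in the wild-type pair. For Cd40 it was 2.26 (1.93 to 2.59), and -0.69 (-1.18 to -0.20) after the 1.28% was taken off the wild-type unstimulated library alone. The direction for Cd40 thus depends on what is taken off which library, and was not settled. Fscn1 had 1.28 (0.90 to 1.65), which became 0.64 (0.23 to 1.06) with the 1.28% taken off, and Cd83 had 0.56 (0.40 to 0.71). Cd80 at -0.46 (-0.71 to -0.22) and Cd274 at -0.38 (-0.42 to -0.35) lay on the other side, while the intervals of Pdcd1lg2 at 0.11 (-0.27 to 0.49) and Cd86 at -0.12 (-0.27 to 0.03) held 0.

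Over the 4 libraries, the genes of the whole table most like each of the 8 were found by the Euclidean distance between log2 CPM profiles centred on their means, among 7817 candidates with a mean CPM of 10 or more. These are descriptions over 4 points that share the LPS step. Cd86 lay closest to Parp10 (distance 0.04) and Trim30d (0.09), an ADP-ribosyltransferase and a TRIM family gene. Cd40 lay closest to the interferon-stimulated genes Isg15 (0.23) and Gbp5 (0.30). Isg15 had 1396 CPM and 1346 CPM in the deficient and wild-type LPS libraries, against 5.16 CPM and 18.8 CPM in the deficient and wild-type unstimulated libraries, so it showed the same raised wild-type unstimulated value as Cd40. Fscn1 lay closest to Gbp10 (0.32) and to Ccr7 (0.32), the chemokine receptor that guides mature dendritic cells to lymph nodes. Ccr7 had 317 CPM and 148 CPM in the deficient and wild-type LPS libraries, against 4.08 CPM and 4.41 CPM in the deficient and wild-type unstimulated ones, which is the Fscn1 pattern at a higher level.

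Icosl lay closest to Trex1 (0.18), a DNA exonuclease gene, with 402 CPM and 137 CPM in the deficient and wild-type LPS libraries, against 17.8 CPM and 21.5 CPM in the deficient and wild-type unstimulated libraries, and its next gene Mpp2 was farther (0.65). Cd83 lay closest to Map3k14 (0.19), the NF-kB-inducing kinase through which CD40 signals, and H2-M3 (0.22). Cd80 lay closest to the autophagy adaptor Sqstm1 (0.09) and Ppfibp2 (0.10), Cd274 to Dnajc1 (0.16) and Ppp1r12b (0.19), and Pdcd1lg2 to the transcription factor gene Cebpb (0.23) and Cyp1b1 (0.25). Trex1, Gbp10, Map3k14, Parp10, Sqstm1, Ppfibp2, Dnajc1, Ppp1r12b and Cebpb overlap exons of other genes, which leaves the origin of their reads uncertain. Among the 8 themselves the nearest were Cd80 and Cd274 (0.55) and the farthest Cd40 and Pdcd1lg2 (5.81).

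The other costimulatory and coinhibitory ligands moved in both directions. This list and those below were also chosen with earlier results of these data known, so their counts are descriptions. Of 32 listed, 23 were tested, of which 17 rose, 5 fell and 1 did not pass, with a median fitted log2 of 1.87 against -0.04 for all genes tested. Slamf7, a self-ligand of the SLAM family, had 1469 CPM and 1642 CPM in the deficient and wild-type LPS libraries, against 379 CPM and 335 CPM in the deficient and wild-type unstimulated libraries, and rose by log2 2.12 ± 0.22. Slamf7 overlaps exons of another gene. H2-T23, which encodes the nonclassical molecule Qa-1, rose by 1.30 ± 0.21, and Tnfsf15, the ligand of death receptor 3, by 4.55 ± 0.62. Slamf1 rose the most of the list, by 7.49 ± 0.38, to 28.4 CPM and 26.6 CPM with LPS in deficient and wild-type cells, against 0.102 CPM and 0.193 CPM without. The 5 that fell, named after their values were seen, were Vsir, which encodes the checkpoint ligand VISTA, at log2 -3.23 ± 0.35, and Cd276, Cd24a, Ceacam1 and Cd244a at -1.40 to -1.71. Vsir had 13.2 CPM and 36.9 CPM in the deficient and wild-type LPS libraries, against 196 CPM and 220 CPM in the deficient and wild-type unstimulated libraries, so it went the opposite way to Cd274. Cd48 was the 1 that did not pass, and 0 of the 23 passed the genotype test.

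Of 18 receptors that lymphocytes use for these ligands, 6 were tested. Ctla4, Pdcd1, Cd40lg and Tigit had 0 counts in every library. Cd28 had 1.66 CPM and 4.71 CPM in the deficient and wild-type LPS libraries, against 62.3 CPM and 81.0 CPM in the deficient and wild-type unstimulated libraries, and fell by 4.64 on the log2 scale (SE 0.35). The T cell markers Cd3e and Cd3d had between 0 and 9 counts. Cd4 had 43 and 17 counts in the deficient and wild-type LPS libraries, against 179 and 59 in the deficient and wild-type unstimulated ones. Lck had 143 and 45 against 34 and 24 in the same order. Whether Cd28 came from macrophages was not tested. Havcr2, which encodes TIM-3, fell to 14.6 CPM and 21.3 CPM in the deficient and wild-type LPS libraries, against 27.4 CPM and 46.2 CPM in the deficient and wild-type unstimulated libraries. Btla, an inhibitory receptor, had 208 and 337 counts with LPS in deficient and wild-type cells and 0 without, at least 72.6-fold and at least 159-fold higher against a floor of 3 counts per library. Of the 6, 3 rose, 2 fell and 1 did not pass, with a median fitted log2 of 1.11 that is the same with Btla at its bound. Btla is among the 3 that rose and was tested through the LPS libraries alone, so it could only count as higher.

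Genes of CD40 signalling and noncanonical NF-kB mostly rose. All 20 were tested, and 17 rose, 1 fell and 2 did not pass, with a median fitted log2 of 1.70. Traf1, an adaptor of CD40, had 305 CPM and 192 CPM in the deficient and wild-type LPS libraries, against 14.5 CPM and 12.3 CPM in the deficient and wild-type unstimulated libraries, and rose by 4.17 ± 0.23. Nfkb2, the noncanonical subunit, rose by 3.26 ± 0.27 and Tnip1, an inhibitor of the pathway, by 1.95 ± 0.26. The 1 that fell was Bcl2l1, at -0.65 ± 0.19 (edgeR adjusted p = 0.0447), and Nfkb2 overlaps exons of another gene. The kinase genes Chuk and Ikbkb did not pass. Bcl2l1, Chuk and Ikbkb were named after their values were seen. The Bcl2l1 call ended with DESeq2 size factors (edgeR adjusted p = 0.0567), and with total counts 14 of the 20 rose.

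Of 18 genes that control turnover and surface delivery of the ligands, 3 rose, 2 fell and 13 did not pass, where 65.7% of all genes tested did not pass, with a median fitted log2 of 0.21. Cmtm6, which protects PD-L1 from degradation, had 219 CPM and 190 CPM in the deficient and wild-type LPS libraries, against 164 CPM and 143 CPM in the deficient and wild-type unstimulated libraries (log2 0.41 ± 0.18, edgeR adjusted p = 0.129). Those that fell were the shedding protease gene Adam10, at -1.23 ± 0.18, and Zdhhc9, whose product palmitoylates PD-L1, at -1.17 ± 0.21. Adam17 did not pass (log2 0.59 ± 0.31, edgeR adjusted p = 0.199). The 3 that rose, named after their values were seen, were March1, a ubiquitin ligase that removes CD86 and MHC class II from the surface, at 0.83 ± 0.24, Spop, a ubiquitin ligase adaptor for PD-L1, at 0.71 ± 0.18, and Stx4a at 0.64 ± 0.18. With total counts, which shift all LPS ratios downwards, those 3 calls ended, and 0 rose and 6 fell. March1, Stx4a and Adam17 overlap exons of other genes, which leaves the origin of their reads uncertain.

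Of 20 transcription factors reported at these genes, 11 rose, 2 fell and 7 did not pass, with a median fitted log2 of 1.05. Stat2, which carries interferon signals, had 441 CPM and 421 CPM in the deficient and wild-type LPS libraries, against 24.9 CPM and 32.8 CPM in the deficient and wild-type unstimulated libraries, and rose by 3.91 ± 0.23. Irf7, the amplifier of interferon genes, rose by 6.10 ± 0.48. The 2 that fell, named after their values were seen, were Myc at -3.68 ± 0.29 and Batf3 at -3.70 ± 0.38. With total counts 8 rose and 3 fell. Exons of other genes overlap Irf7.

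The list of dendritic cell maturation held 20 genes, Ccr7 among them, known to rise when dendritic cells mature, and 16 were tested. Of these 15 rose, 0 fell and 1 did not pass, with a median fitted log2 of 3.51. Il12b, which encodes the shared subunit of interleukins 12 and 23, rose by 8.00 ± 1.03, to 3335 CPM and 2452 CPM in the deficient and wild-type LPS libraries, against 3.57 CPM and 32.4 CPM in the deficient and wild-type unstimulated libraries. The fitted change and the 32.4 CPM are as counted, without the subtraction of 1.28%. Ccl22, a chemokine for T cells, rose by 4.94 ± 0.26 and Cacnb3, a calcium channel subunit gene, by 6.02 ± 0.35. The list is also the only one of the 7 with a gene past the genotype test. Apol7c, named after its values were seen, had 202 CPM and 39.2 CPM in the deficient and wild-type LPS libraries, and 3.63 CPM and 1.20 CPM in the deficient and wild-type unstimulated libraries, and rose with deficiency by log2 2.03 (edgeR adjusted p = 0.0410). That call ended with DESeq2 size factors (edgeR adjusted p = 0.0858), with total counts (0.0682), with no filter (0.106) and with genotype as the single term. It held with a minimum of 10 CPM (0.0239), with the 1.28% taken off (0.0284) and in DESeq2's Wald test (3.32e-08), and the log2 value was between 2.0 and 2.35 in all of these. Relb, Birc2 and Cd200 stand in this list and in another. Dendritic cell markers did not rise as a list, with 2 of 9 tested higher, 3 lower and 4 not passed. The 2 called higher, Xcr1 and Dpp4, were under 1 CPM in both unstimulated libraries, so their calls could only be higher. Xcr1 was at 2.11 CPM and 2.54 CPM in the deficient and wild-type LPS libraries and at 0 without, and Wdfy4 stood at 142 CPM and 140.0 CPM with LPS against 109 CPM and 166 CPM without.

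Of 23 other actin bundling and dendrite genes, 19 were tested, and 5 rose, 1 fell and 13 did not pass, again near the 65.7% of all genes tested, with a median fitted log2 of -0.02. Its family members Fscn2 and Fscn3 had 0 counts in every library. Lcp1, the leukocyte plastin gene, rose by 1.30 ± 0.20, to 4163 CPM and 4311 CPM with LPS in deficient and wild-type cells against 1683 CPM and 1749 CPM without, and the formin genes Fmnl2 and Daam1 rose by 2.98 ± 0.19 and 1.76 ± 0.20. Cdc42, the small GTPase that starts filopodia, did not pass (log2 0.44 ± 0.19, edgeR adjusted p = 0.132). Actn4 was the 1 that fell, at -0.77 ± 0.19, and was named after its values were seen. With total counts 4 rose and 9 fell. Exons of other genes overlap Lcp1 and Actn4.

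**Figure D4:**
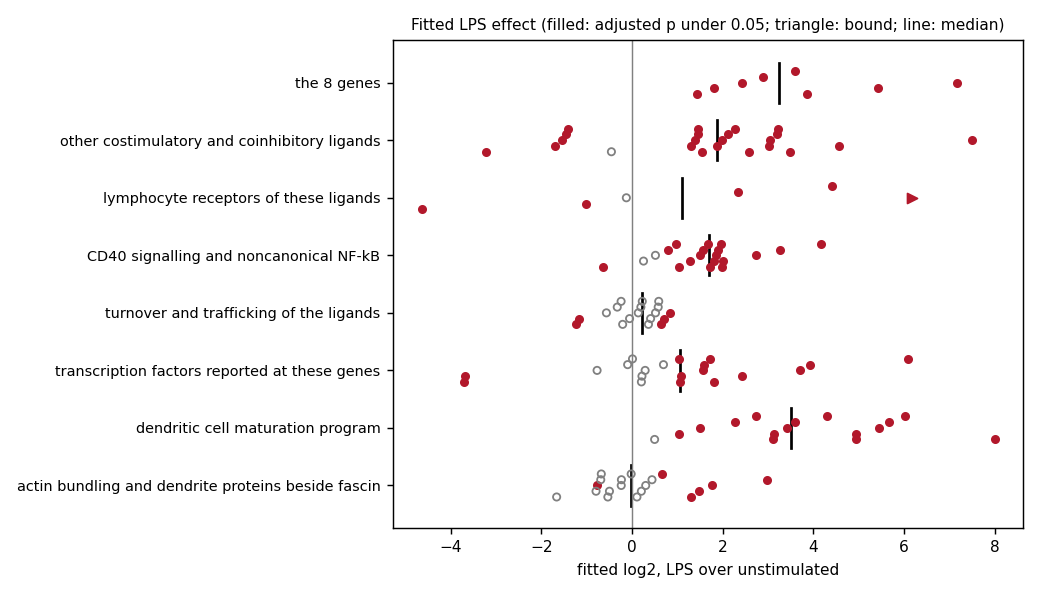
Fitted log2 LPS change of every tested gene in the 8 genes and in 7 related lists, 1 point a gene, filled where the edgeR adjusted p was under 0.05, with the median as a line. The triangle is Btla at its lower bound of 6.18, the smaller of the bounds of both pairs. The 8 genes have a median of 3.24 and the maturation list 3.51, while the turnover and actin lists lie around 0.21 and -0.02.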

How the data were processed

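The deposited values are raw counts per gene, 1 file per library, which the authors made with no normalization. Per the series design text, Casava v1.8.2 made the base calls, and reads were trimmed with Cutadapt and aligned with TopHat v2.0.13 and Bowtie2, and the exon annotation came from Partek. The submitters' processing notes name HTSeq and mm8. Strand use, reads with several positions and the annotation release are not stated there. Of 52550 IDs, 99.7% matched GENCODE M21 (GRCm38), which gave symbols, coordinates and exon lengths by ID.

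Counts were scaled by TMM (factors 0.890, 0.846, 1.16 and 1.15 for the deficient LPS, wild-type LPS, deficient unstimulated and wild-type unstimulated libraries) and fitted with edgeR 4.0.16 (limma 3.58.1, R 4.3.3), with genotype and LPS as terms. The biological coefficient of variation was 0.247. Standard errors are the fitted change divided by the square root of F. The script was tested on simulated data. Pair ratios have exact Clopper-Pearson 95% intervals. Differences between LPS effects add 0.5 counts and use a normal interval. All intervals cover counting error only, since each group holds 1 library. They treat counts as independent molecules, which copies made by PCR are not, so they can be too narrow even for counting error.

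From each list up to 4 tested genes were named, 2 by mean CPM and 2 by fitted change, and for each of the 8 genes the 2 most alike, except for a few that are not given here. The members and lists were chosen with earlier results of these data known. Alternatives were DESeq2 1.42.0 size factors and its Wald test, total counts, testing every gene, testing from 10 CPM upward, models with 1 term, leaving out each library, other fold limits, 5 added counts, transcript length and the subtraction of 1.28% of each wild-type LPS count from the wild-type unstimulated library. No library was left out of the main comparisons.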

Additional observations from a re-analysis of the deposited data

Results flagged for a closer look

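The genotype ratio pointed one way with LPS and the other way without it, with both intervals clear of 0, for 4 of the 8 genes, which is what brought them here. How many of all genes tested do the same was not counted. Intervals clear of 0 were common among them, with 34.8% above and 31.6% below 0 with LPS, and 31.9% and 30.7% without. Fscn1 also changed sign, but its interval without LPS held 0. With 1 library in each group the difference itself was not tested. The value is the log2 ratio of deficient over wild type with LPS minus that without. For Cd40 it was 2.26 (0.37 with LPS, -1.90 without), and its unstimulated ratio turned to 1.06 once 1.28% of each wild-type LPS count was subtracted from the wild-type unstimulated library, with nothing taken off the deficient one. For Icosl it was 1.80 (1.47 with LPS, -0.33 without, where the interval held 0 after that subtraction), for Cd80 -0.46 (-0.13 with LPS, 0.33 without) and for Cd274 -0.38 (-0.28 with LPS, 0.11 without). Under scaling by total counts the interval of Cd80 with LPS held 0 (-0.055, -0.161 to 0.050).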

How the results depend on the processing

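The LPS fits of the 8 genes kept their direction and call in 80 of 87 alternatives, and the other 7 ended a call, all for Cd83 and Pdcd1lg2. Leaving out 1 library, in a model of LPS alone that assumes the lone library of a condition to vary like the others, left 6 to 7 of the 8 genes called. Among all genes, the fit with both terms gave 2297 higher and 2075 lower and a model of LPS alone 2090 and 1835, which leaving out 1 library brought to 1088 to 1744 higher and 588 to 1464 lower. Total counts gave 1550 higher and 3842 lower, since that scaling shifted every log2 LPS ratio by -0.38 in the deficient and -0.44 in the wild-type pair. All 8 genes were still called under it, with 7 beyond 2-fold in the deficient and 6 in the wild-type pair. Genes called for genotype, 49 higher and 21 lower, became 27 higher with DESeq2 size factors, 31 with total counts, 25 with 1.28% of each wild-type LPS count taken off the wild-type unstimulated library, 18 higher and 12 lower with no filter, 147 and 81 with DESeq2's Wald test and 0 and 0 with genotype alone. The fitted genotype value of Cd40, -0.68, turned to 0.66 with the 1.28% taken off and to 0.35 with genotype alone, where that of Cd80, 0.10, became -0.055; the cause of the turns with genotype alone was not tested. The count of genes beyond the fold limit moved with that limit. With LPS it was 0 higher at 4-fold and 1 lower at 1.5-fold, against 2 and 0 at 2-fold. Without LPS it was 2 lower at 1.5-fold, 0 at 4-fold and 0 with the 1.28% taken off, against 1. For the difference between LPS effects it was 1 higher with the 1.28% taken off and 0 at 4-fold, against 2. With the 1.28% taken off the wild-type unstimulated library alone, the unstimulated genotype ratio of Cd40 turned to 1.06 and its difference between LPS effects to -0.69, so neither sign gives a direction. No paired analysis was possible because each group holds 1 library, beyond the fit itself, which compares LPS within each genotype. Counting limits Pdcd1lg2 most with LPS, at 297 and 469 counts in deficient and wild-type cells, while 1 library a group limits every genotype value.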
